A study of Mus musculus with 10 samples.

Results

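The enzymes described here conjugate small molecules or cleave their ester bonds: the glutathione S-transferases (Gst and Mgst genes), the UDP-glucuronosyltransferases (Ugt), the sulfotransferases (Sult) and the carboxylesterases (Ces). They were chosen by gene symbol alone, as every row whose symbol starts with Gsta, Gstm, Gstp, Gstt, Gsto, Gstk, Mgst, Ugt1, Ugt2 or Ugt3, or with Sult or Ces followed by a digit, with pseudogenes left out. This gave 85 of the 24839 rows of the table: 21 Gst, 3 Mgst, 9 Ugt1, 10 Ugt2, 2 Ugt3, 21 Sult and 19 Ces genes. Poly-A RNA of mouse small-intestinal epithelial cells was sequenced, in 5 libraries titled HCD and 5 titled NCD. HCD is the high cellulose diet of the study's title, NCD is not spelled out in the sources used here, and the mice ate their diet for 60 days. The treatment label of all 5 HCD libraries is OVA treatment (ovalbumin), and that of all 5 NCD libraries is untreated. Per the study's design, mice given OVA were injected with 50 µg of it and 1 mg of alum on days 0 and 14 and then received 5 oral doses of 50 mg, and the others received saline. Diet, OVA and handling (all NCD libraries carry lower library numbers than all HCD libraries) therefore cannot be told apart. The labels give no strain, age or sex, name no allele, and do not say whether the libraries of a group came from separate mice, so p-values measure only the spread between these libraries.

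Absorptive cells of the gut meet drugs, plant compounds, bile products and oxidised lipids before the liver does. In the usual scheme, carboxylesterases hydrolyse esters and amides, including many prodrugs and acylglycerols, and the conjugating (phase II) enzymes then attach glutathione, glucuronic acid or sulfate, which makes products more soluble and ready for export. Cytosolic glutathione S-transferases fall into classes named by Greek letters (alpha, mu, pi, theta, omega). The kappa class is one of mitochondria and peroxisomes, and the Mgst proteins are membrane-bound. Several of these families lie in gene clusters whose members resemble each other closely.

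That resemblance bears on the values, since a read that fits several genes has to be divided among them, and the sequences below, all from the start of the coding region (bases 1 to 60, GENCODE M21 on GRCm38), are shown to let a reader judge it. Capitals mark bases that differ between the genes compared. The first set holds alpha-class genes of chromosome 9 and Gm3776, a gene outside the naming rule that differs from Gsta1 at 2 of 672 coding bases (99.7% identity). The second holds the pi-class genes Gstp1 and Gstp2 of chromosome 19, which differ at 12 of 633 coding bases (98.1% identity).
Gsta1: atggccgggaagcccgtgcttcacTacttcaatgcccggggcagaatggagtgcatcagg
Gsta2: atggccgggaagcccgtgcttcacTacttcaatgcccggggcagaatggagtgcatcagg
Gm3776: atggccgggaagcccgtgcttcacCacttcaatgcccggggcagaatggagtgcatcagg
Gstp1: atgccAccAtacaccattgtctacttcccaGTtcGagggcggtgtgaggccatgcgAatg
Gstp2: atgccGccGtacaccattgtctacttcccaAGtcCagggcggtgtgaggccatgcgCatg
Of the 31-base stretches in the transcripts of Gsta1, 92.9% also occurred in transcripts of another gene, against 60.7% for Gsta2, 60.3% for Gstp2, 38.5% for Gstp1, 37.7% for Gstm3 and 28.8% for Gstm1. The share was 12.2% for Gstm2, 3.31% for Gstm4, 2.62% for Gstm7, 0.53% for Gstp3 and 0% for Gstm5, Mgst1, Sult1b1, Sult1d1, Sult2b1 and Sult6b2. The 9 Ugt1a genes have separate first exons and a common end, and 1311 exonic bases were common to all 9, over which reads cannot be assigned to one gene. Values of Gsta1, Gsta2, Gstp1, Gstp2, Gstm1, Gstm3 and the Ugt1a genes are therefore uncertain. So are those of Ces2c (50.1% shared), Ugt2b5 (56.4%), Ces3a (34.9%), Ces2a (30.2%), Ces2b (25.2%) and Ces1c (23.3%). The size of that uncertainty was not measured.

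Promoter sequence is shown for Gsta3, which holds a match to a motif of a regulator described further on (RefSeq, GRCm38.p6, 250 bases before to 50 after the gene start). The match is in capitals, searched on both strands: TGACNNNGC, the core of the antioxidant response element.
Gsta3 (chr1:21240439-21240498, plus strand): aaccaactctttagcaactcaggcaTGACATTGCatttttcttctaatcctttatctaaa
TGACNNNGC occurred in 4.71% of the 85 promoter windows of 73 member genes (those of Gsta3, Gstm5, Gstm7 and Mgst1) and in 12.4% of all 32851 windows. TNGCGTG, the core that the aryl hydrocarbon receptor binds, occurred in 3.53% of the member windows (Gsta2, Sult1d1 and Ugt1a5) and in 5.07% of all windows. A match is a description of these letters only.

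The values are FPKM, a measure corrected for the length of each transcript and the size of each library, so levels can be set side by side between genes. The libraries summed to 539751 to 634279 FPKM, and their depth is unknown. Of 12 enterocyte markers 5 were higher in HCD libraries and none was lower, and the list summed to 30708 to 46250 FPKM there against 19256 to 30920 FPKM in NCD libraries. Among them the apolipoproteins Apoa1 (19183 FPKM in HCD and 9978 FPKM in NCD libraries) and Apoa4 (7954 FPKM in HCD and 4614 FPKM in NCD libraries) were higher, while Vil1, a brush border protein, averaged 676 FPKM in HCD and 611 FPKM in NCD libraries and did not pass. Of 7 hepatocyte markers, Ahsg and Fgb were listed at 0 in all libraries but 1, where Ahsg read 0.024 FPKM, Alb reached at most 0.200 FPKM in HCD and 0.380 FPKM in NCD libraries, and Serpina1a and Tat averaged under 1 FPKM in both groups. The remaining ones were present, Ttr at 2.97 FPKM in HCD and 4.86 FPKM in NCD libraries and Apob, which enterocytes also make, at 30.5 FPKM in HCD and 22.5 FPKM in NCD libraries. The 13 mitochondrially encoded genes took 14.8% to 29.5% of the FPKM in HCD libraries and 3.23% to 5.76% in NCD libraries. Of 13 T cell and intraepithelial lymphocyte markers, 12 were higher in HCD libraries, and the list summed to 1960 to 3852 FPKM there against 293 to 926 FPKM in NCD libraries. All 4 red blood cell markers and 6 of 11 tested villus tip markers were also higher, and 4 of 6 Paneth cell and 4 of 6 dividing cell markers lower. Of all tested genes, 7.13% were higher and 19.2% lower. After rescaling without mitochondrial genes these higher counts stayed, and 3 Paneth cell and 1 dividing cell markers were lower. After quantile normalization 2 enterocyte, 12 T cell, 4 red blood cell and 4 villus tip markers were higher, and 2 Paneth cell and 2 dividing cell markers lower. Apoa1 (limma adjusted p = 0.427) and Apoa4 (0.802) then did not pass. The part of these shifts in the results below was not tested, except that values rescaled without mitochondrial genes are given beside the deposited ones. In such bulk libraries, fewer cells of a type and less RNA per cell cannot be told apart.

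Of the 85 genes, 48 averaged at least 1 FPKM over the 10 libraries and were tested, and 11 of them passed at an adjusted p under 0.05 (limma on log2(FPKM + 1), Benjamini-Hochberg over all 10321 tested genes). Ces1d was higher in HCD libraries, and 10 genes were lower: 5 mu-class genes (Gstm1, Gstm2, Gstm3, Gstm4 and Gstm7), Gstp3, Mgst2, Ugt1a1, Ces2g and Ces1c. The lower calls were 20.8% of the 48 tested genes, against 19.2% of all tested genes, and the higher call was 2.08%, against 7.13% of all. As a whole, the enzymes had lower calls at about the rate of all tested genes. Their median difference, HCD minus NCD on the log2 scale, was -0.37, against -0.19 over all tested genes, and 40 of the 48 differences lay below 0 (35 after rescaling without mitochondrial genes, 33 after quantile normalization). Over all tested genes, 7029 of 10321 differences lay below 0 in the deposited scaling. That count was not made in the other scalings, so the 35 and 33 cannot be set against it. After rescaling without mitochondrial genes, 7 members were lower (14.6%, against 8.34% of all) and 1 was higher (2.08%, against 9.07% of all), and the medians were -0.20 for the members and -0.05 for all genes. After quantile normalization, Ces2g, Gstm3 and Gstm7 remained lower (6.25%, against 8.56% of all) and Ces1d remained higher (2.08%, against 8.99% of all). Every HCD library lay below every NCD library in 7 members, a pattern that 12.9% of all tested genes showed, and above in Ces1d alone, a pattern that 4.53% of all tested genes showed. These 7 were the 5 lower mu-class genes, Mgst2 and Ces2g.

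**Figure D1:**
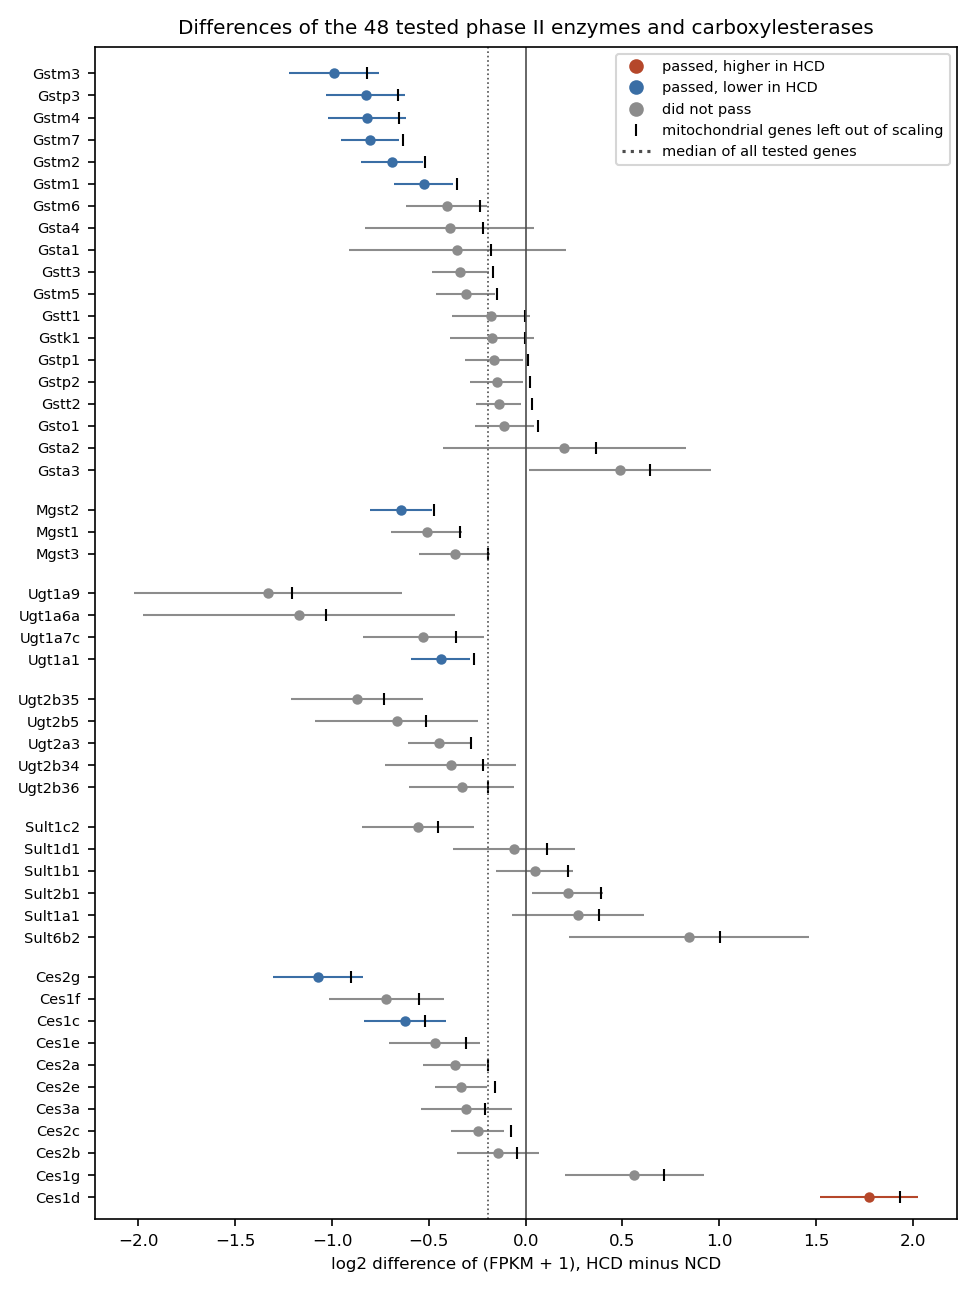
Log2 difference of (FPKM + 1), HCD minus NCD, of the 48 tested genes, grouped by family, with horizontal bars of 1 SE. Black ticks give the difference after rescaling without mitochondrial genes, and the dotted line the median of all tested genes (-0.19). The 5 mu-class genes that passed lie, with Gstp3, at the left of the Gst block, and Ces1d stands alone at the right of the Ces block.

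In the mu class, 5 of 7 tested genes were lower in HCD libraries (71.4%, against 19.2% of all tested genes). Its genes lie side by side on chromosome 3 (GRCm38, chr3:107895821-108044894) in the order Gstm5, Gstm7, Gstm6, Gstm3, Gstm2, Gstm1 and Gstm4. The mu enzymes conjugate glutathione to electrophiles such as epoxides and quinones. None was higher, and the median difference was -0.69 (-0.52 after rescaling without mitochondrial genes, -0.40 after quantile normalization). Over all tested genes the medians were -0.19, -0.05 and -0.06 in the same order. After rescaling without mitochondrial genes, 4 of the 5 passed (57.1% of the 7 tested, against 8.34% of all tested genes). After quantile normalization 2 did (28.6%, against 8.56% of all). Their summed level was 1014 ± 229 FPKM in HCD libraries and 1548 ± 147 FPKM in NCD libraries (SD, n = 5 each), and the highest HCD sum, 1213, lay below the lowest NCD sum, 1424.

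Gstm7 (chr3:107926334-107931817) read 20.8, 26.4, 26.5, 21.9 and 16.6 FPKM in HCD replicates 1 to 5, and 40.9, 40.4, 34.3, 46.9 and 35.6 FPKM in NCD replicates 1 to 5. The groups did not overlap, and the HCD mean was 0.567 of the NCD mean (difference -0.80 ± 0.15 SE, limma adjusted p = 0.00235). Gstm2 (chr3:107981702-107986453), one of the more abundant members of the class, read 261, 379.8, 383, 343 and 219 FPKM in HCD replicates 1 to 5, against 511, 485, 486, 553 and 470.2 FPKM in NCD replicates 1 to 5. Here too all HCD libraries were below all NCD libraries, with a difference of -0.69 ± 0.16 SE (limma adjusted p = 0.00735). Gstm3 (chr3:107963696-107969283) read 81.6, 160.2, 145, 162 and 65.3 FPKM in HCD replicates 1 to 5 and 245, 195, 235, 254 and 223 FPKM in NCD replicates 1 to 5. It had the largest difference of the class, -0.99 ± 0.23 SE (limma adjusted p = 0.00774), and HCD replicates 1 and 5 were the lowest. Gstm4 averaged 14.0 ± 4.36 FPKM in HCD libraries and 24.5 ± 2.56 FPKM in NCD libraries (SD), with a difference of -0.82 ± 0.20 SE (limma adjusted p = 0.0103). Gstm1, the most abundant mu gene, averaged 418 ± 71.3 FPKM in HCD libraries and 601 ± 95.9 FPKM in NCD libraries, with a difference of -0.53 ± 0.15 SE (limma adjusted p = 0.0217). The other two members of the cluster did not pass, with Gstm6 at 105 ± 35.6 FPKM in HCD libraries and 133 ± 8.68 FPKM in NCD libraries (limma adjusted p = 0.163). Gstm5, at one end of the cluster, averaged 14.6 ± 1.91 FPKM in HCD libraries and 18.4 ± 3.20 FPKM in NCD libraries (limma adjusted p = 0.151).

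Rescaling without mitochondrial genes ended the call of Gstm1 (difference -0.35, limma adjusted p = 0.114) and no other of these 5. After quantile normalization, Gstm1 (limma adjusted p = 0.247), Gstm2 (0.0752) and Gstm4 (0.0674) no longer passed, while Gstm3 (0.0379) and Gstm7 (0.0248) did.

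**Figure D2:**
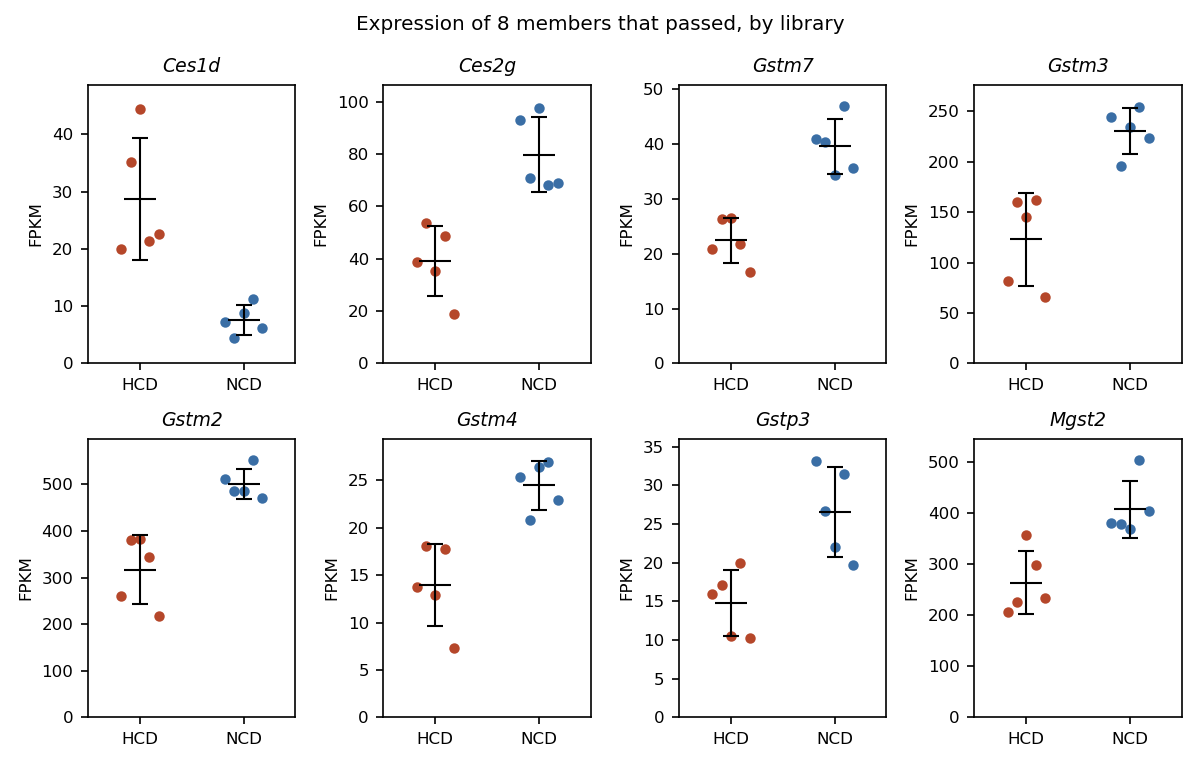
FPKM by library of 8 of the genes that passed, with HCD libraries in red at the left and NCD libraries in blue at the right of each panel; horizontal lines are means and bars 1 SD (n = 5 each). Only in the Gstp3 panel do the groups overlap.

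The other Gst classes gave 1 call, a lower one, among 12 tested genes, where 19.2% of all tested genes were lower and 7.13% higher. Gstp3, a pi-class gene next to Gstp1 and Gstp2 (chr19:4057477-4059569), averaged 14.8 ± 4.25 FPKM in HCD libraries and 26.6 ± 5.82 FPKM in NCD libraries (SD, n = 5 each). It was lower by limma (difference -0.83 ± 0.20 SE, adjusted p = 0.0102), with 1 HCD library (19.9 FPKM) above the lowest NCD library (19.7 FPKM), and it no longer passed after quantile normalization (0.0666). Its near neighbour Gstp1 (chr19:4035407-4037985), the main pi-class enzyme and the most abundant of all the cytosolic Gst genes here, read 1327, 1362, 1402, 1449 and 964 FPKM in HCD replicates 1 to 5, against 1450.4, 1504, 1242, 1659.6 and 1382 FPKM in NCD replicates 1 to 5. These values overlapped (difference -0.16 ± 0.15 SE, limma adjusted p = 0.452), and only HCD replicate 5 lay below all NCD libraries. Gstp2 averaged 218 ± 29.7 FPKM in HCD libraries and 242 ± 34.7 FPKM in NCD libraries. Gsto1 (chr19:47854970-47864790), the omega-class enzyme that reduces dehydroascorbate, read 491, 566, 793, 563 and 476 FPKM in HCD replicates 1 to 5 and 678, 597, 611, 679 and 518 FPKM in NCD replicates 1 to 5. The HCD values lay on both sides of the NCD range (difference -0.11 ± 0.15 SE, limma adjusted p = 0.629). The theta-class genes Gstt1, Gstt2 and Gstt3 summed to 202 ± 45.5 FPKM in HCD libraries and 228 ± 21.2 FPKM in NCD libraries, and Gstk1, a kappa-class enzyme of mitochondria and peroxisomes, averaged 109 ± 44.1 FPKM in HCD libraries and 118 ± 17.7 FPKM in NCD libraries. None of these 4 passed, and 1 of the theta-class genes had an unadjusted p under 0.05.

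The alpha class was uneven within the HCD group. Gsta1, which together with the other alpha enzymes conjugates products of lipid peroxidation, read 447, 782, 1078, 587 and 64.3 FPKM in HCD replicates 1 to 5 and 559.7, 437, 665, 745 and 402 FPKM in NCD replicates 1 to 5. HCD replicate 3 was the highest library and HCD replicate 5 the lowest by far. Gsta2 read 54.2, 74.8, 146, 47.4 and 4.65 FPKM in HCD replicates 1 to 5 and 42.2, 25.2, 43.2, 58.8 and 27.3 FPKM in NCD replicates 1 to 5, again with HCD replicate 3 at the top and HCD replicate 5 at the bottom. Gsta4, whose enzyme prefers 4-hydroxynonenal, was at 31.8 FPKM in HCD replicate 5, at 125 to 266 FPKM in the other HCD libraries and at 127 to 229 FPKM in NCD libraries. None of the 4 tested alpha genes passed by limma (0 at an unadjusted p under 0.05), and the sum of the class was 838 ± 531 FPKM in HCD libraries and 791 ± 209 FPKM in NCD libraries. Gm3776, the near copy shown above, read 415.7, 674, 960.5, 556 and 58.8 FPKM in HCD replicates 1 to 5 and 541, 388, 584, 694 and 369 FPKM in NCD replicates 1 to 5, which is the order of Gsta1 in every library of each group. Summed over Gsta1, Gsta2, Gm3776 and Gm10639, the level was 1221 ± 778 FPKM in HCD libraries and 1145 ± 302 FPKM in NCD libraries. Gsta3, on chromosome 1, averaged 17.3 ± 12.9 FPKM in HCD libraries and 12.3 ± 9.05 FPKM in NCD libraries (limma adjusted p = 0.474).

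The 3 membrane-bound enzymes were all abundant and all had negative differences, as did 7029 of the 10321 tested genes. Mgst2 (chr3:51660360-51682677), which can also make leukotriene C4, read 206, 226, 357, 298 and 234 FPKM in HCD replicates 1 to 5 and 381, 379.9, 369, 506 and 405 FPKM in NCD replicates 1 to 5. All HCD libraries were below all NCD libraries, and the gene was lower (difference -0.65 ± 0.16 SE, limma adjusted p = 0.0102; 0.0298 after rescaling without mitochondrial genes and 0.0785 after quantile normalization). Mgst1 (chr6:138140316-138156755), a transferase and peroxidase of the endoplasmic reticulum and mitochondria, read 375, 384, 662, 378 and 420.0 FPKM in HCD replicates 1 to 5 and 761, 506, 686, 685 and 493 FPKM in NCD replicates 1 to 5. All HCD values except that of replicate 3 lay below the NCD range, and the gene narrowly missed the threshold (difference -0.51 ± 0.18 SE, limma adjusted p = 0.0534). Mgst3 (chr1:167371966-167393841), the most abundant of the 3, read 754, 699, 825, 909.8 and 481 FPKM in HCD replicates 1 to 5 and 1018, 878, 741, 1197 and 856 FPKM in NCD replicates 1 to 5. The groups overlapped (difference -0.37 ± 0.18 SE, limma adjusted p = 0.154). Summed over the 3 genes, the level was 1442 ± 277 FPKM in HCD libraries and 1973 ± 287 FPKM in NCD libraries.

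Among the Ugt1a genes, Ugt1a1 was lower by a small margin and the others varied between libraries. Ugt1a1 (chr1:88211959-88218997), the enzyme that conjugates bilirubin, read 182, 305, 278, 251 and 190.1 FPKM in HCD replicates 1 to 5 and 358, 306, 339, 300.0 and 305 FPKM in NCD replicates 1 to 5. The groups overlapped only through HCD replicate 2, and the difference was -0.44 ± 0.15 SE (limma adjusted p = 0.0468). The call ended after rescaling without mitochondrial genes (limma adjusted p = 0.225) and after quantile normalization (0.434). It also ended when any 1 library other than HCD replicate 2 or 3 was left out (up to 0.109). Ugt1a7c (chr1:88095062-88220002) read 57.2, 119.6, 88.3, 102 and 27.1 FPKM in HCD replicates 1 to 5 and 118, 80.6, 126, 96.1 and 94.2 FPKM in NCD replicates 1 to 5. It overlapped between the groups (difference -0.53 ± 0.31 SE, limma adjusted p = 0.229), and HCD replicate 5 was its lowest library. Ugt1a6a and Ugt1a9, whose enzymes conjugate phenols, were both listed at 0 in HCD replicate 5 and both highest in NCD replicate 3. Ugt1a6a ranged from 0.00 to 20.9 FPKM in HCD libraries and from 2.76 to 69.3 FPKM in NCD libraries. Ugt1a9 ranged from 0.00 to 6.25 FPKM in HCD libraries and from 1.54 to 54.2 FPKM in NCD libraries. Neither passed (limma adjusted p = 0.303 for Ugt1a6a and 0.170 for Ugt1a9). Ugt1a1 held 66.6% to 87.5% of the summed Ugt1a FPKM in HCD libraries and 56.9% to 76.9% in NCD libraries, with HCD replicate 5 at the upper end and NCD replicate 3 at the lower. FPKM are scaled to each gene's length and these genes differ in length, so their sum, too, depends on how reads were divided among them. It was 335 ± 94.2 FPKM in HCD libraries and 469 ± 83.7 FPKM in NCD libraries.

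**Figure D3:**
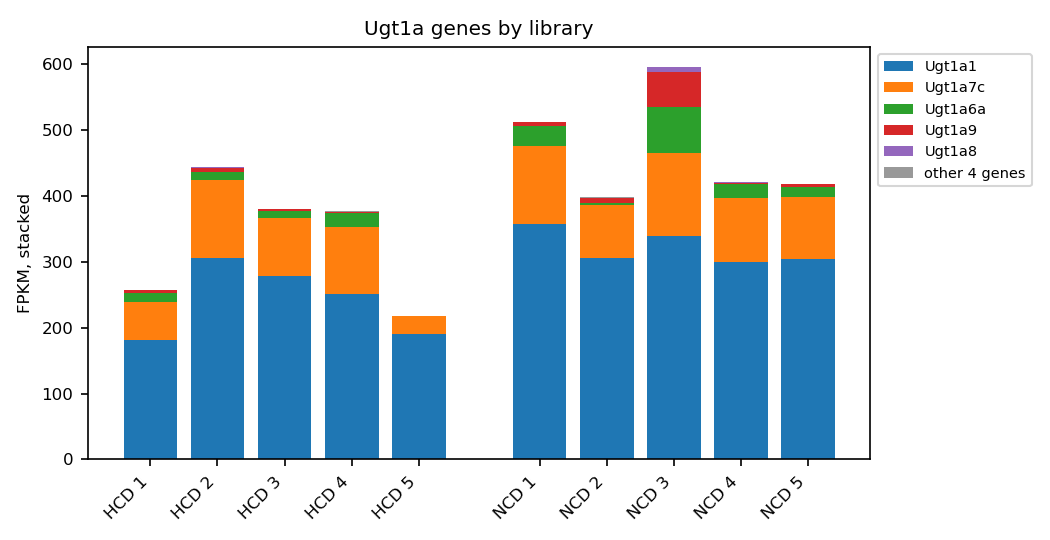
FPKM of the Ugt1a genes stacked by library, with the 5 HCD libraries at the left and the 5 NCD libraries at the right. Ugt1a1 makes up most of each bar, HCD replicate 5 shows neither Ugt1a6a nor Ugt1a9, and NCD replicate 3 shows the most of both.

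None of the 5 tested Ugt2 genes passed by limma (2 at an unadjusted p under 0.05), and all 5 differences were negative. Negative differences were also the majority over all tested genes (7029 of 10321). Ugt2b34 (chr5:86889767-86906937) read 19.5, 77.2, 23.2, 54.7 and 24.3 FPKM in HCD replicates 1 to 5 and 41.2, 27.6, 58.2, 47.2 and 60.1 FPKM in NCD replicates 1 to 5. The HCD libraries held both the highest and the lowest value (difference -0.39 ± 0.34 SE, limma adjusted p = 0.423). Ugt2a3 (chr5:87324972-87337195) read 17.1, 30.2, 22.5, 24.7 and 18.6 FPKM in HCD replicates 1 to 5 and 31.5, 24.9, 35.3, 31.4 and 30.9 FPKM in NCD replicates 1 to 5. HCD replicate 2 alone reached the NCD range, and the gene narrowly missed the threshold (difference -0.45 ± 0.16 SE, limma adjusted p = 0.0534). Ugt2b35 averaged 3.90 ± 2.72 FPKM in HCD libraries and 7.36 ± 2.87 FPKM in NCD libraries (limma adjusted p = 0.0726), and Ugt2b5 averaged 9.63 ± 5.64 FPKM in HCD libraries and 13.8 ± 4.88 FPKM in NCD libraries (limma adjusted p = 0.262). Ugt2b36 averaged 3.94 ± 1.81 FPKM in HCD libraries and 5.06 ± 1.80 FPKM in NCD libraries (limma adjusted p = 0.392). Both Ugt3 genes were listed at 0 in all 10 libraries.

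Of the 6 tested sulfotransferase genes none passed by limma (0 at an unadjusted p under 0.05), and 4 had positive differences (5 after rescaling without mitochondrial genes or after quantile normalization). Over all tested genes, 3292 of 10321 differences were positive in the deposited scaling, and the other scalings were not counted. The median of the 6 was 0.13, against -0.19 over all tested genes. Sult2b1 (chr7:45729983-45784669), which sulfates cholesterol and other 3-hydroxysteroids, read 296, 345, 394, 364 and 504 FPKM in HCD replicates 1 to 5 and 273, 386, 235, 440.4 and 319 FPKM in NCD replicates 1 to 5. Its highest value was in HCD replicate 5, the library in which Gsta1 was lowest, and the groups overlapped (difference 0.22 ± 0.18 SE, limma adjusted p = 0.409). Sult1b1 (chr5:87513339-87538195), which sulfates thyroid hormones and small phenols, read 137, 273, 302, 221 and 167 FPKM in HCD replicates 1 to 5 and 214, 159.9, 214, 215 and 224 FPKM in NCD replicates 1 to 5. The HCD values spread on both sides of the NCD range (difference 0.05 ± 0.20 SE, limma adjusted p = 0.887). Sult6b2 read 26.1, 117, 53.1, 46.8 and 3.54 FPKM in HCD replicates 1 to 5 and 21.7, 10.6, 22.2, 19.6 and 15.1 FPKM in NCD replicates 1 to 5. HCD replicates 1 to 4 were above every NCD library and HCD replicate 5 was below every NCD library (difference 0.84 ± 0.62 SE, limma adjusted p = 0.337). Sult1d1, which sulfates catecholamines, averaged 45.6 ± 26.0 FPKM in HCD libraries and 44.9 ± 16.0 FPKM in NCD libraries. The low genes Sult1a1 and Sult1c2 averaged 1.69 ± 0.923 and 0.980 ± 0.470 FPKM in HCD libraries, and 1.36 ± 1.36 and 2.05 ± 1.23 FPKM in NCD libraries. All Sult2 genes other than Sult2b1, 8 in number, were listed at 0 in every library.

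The carboxylesterases held the largest called differences in both directions among these genes. Their genes lie in a Ces1 and a Ces2/Ces3 cluster on chromosome 8. Ces1d (chr8:93166068-93197838), known in mouse liver and fat as a triacylglycerol hydrolase, read 19.9, 35.2, 44.4, 21.4 and 22.6 FPKM in HCD replicates 1 to 5 and 7.32, 4.45, 8.83, 11.2 and 6.13 FPKM in NCD replicates 1 to 5. Every HCD library was above every NCD library, and the HCD mean of 28.7 ± 10.7 FPKM was 3.78 times the NCD mean of 7.59 ± 2.59 FPKM (SD; difference 1.77 ± 0.25 SE, limma adjusted p = 0.000476). Ces1d passed without any single library (differences of 1.60 to 1.91), after rescaling without mitochondrial genes (1.93) and after quantile normalization (1.96). Among replicates 1 to 3 alone its difference was 2.09 (limma adjusted p = 0.00569), and among replicates 4 and 5 it was 1.30 (0.0842).

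None of the other 4 tested Ces1 genes was higher. Ces1c (chr8:93099015-93131283), which in rodents encodes the esterase of plasma, read 1.35, 0.881, 1.06, 0.719 and 1.06 FPKM in HCD replicates 1 to 5 and 2.33, 2.41, 3.39, 1.10 and 1.64 FPKM in NCD replicates 1 to 5. It was lower at a very low level (difference -0.62 ± 0.21 SE, limma adjusted p = 0.0436). That call ended after rescaling without mitochondrial genes (0.119), after quantile normalization (0.0520) and when any 1 library other than HCD replicate 1 or NCD replicate 4 was left out (up to 0.117). Ces1e averaged 16.2 ± 4.61 FPKM in HCD libraries and 22.7 ± 6.40 FPKM in NCD libraries and did not pass (limma adjusted p = 0.155). Ces1f, a relative of Ces1d that also hydrolyses acylglycerols, averaged 125 ± 48.2 FPKM in HCD libraries and 194 ± 51.3 FPKM in NCD libraries (limma adjusted p = 0.0881), and Ces1g averaged 12.5 ± 7.46 FPKM in HCD libraries and 7.41 ± 2.79 FPKM in NCD libraries (limma adjusted p = 0.263). Summed over the Ces1 genes, the level was 183 ± 63.7 FPKM in HCD libraries and 234 ± 61.2 FPKM in NCD libraries.

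The Ces2 genes made up most of the carboxylesterase RNA, at 1713 ± 224 FPKM in HCD libraries and 2172 ± 182 FPKM in NCD libraries. Ces2g (chr8:104961718-104969537) read 38.7, 53.8, 35.2, 48.7 and 19.1 FPKM in HCD replicates 1 to 5 and 92.9, 71.0, 97.6, 68.2 and 69.1 FPKM in NCD replicates 1 to 5. The groups did not overlap, and the HCD mean was 0.490 of the NCD mean (difference -1.07 ± 0.23 SE, limma adjusted p = 0.00495; 0.0186 after rescaling without mitochondrial genes and 0.0278 after quantile normalization). Ces2e (chr8:104926260-104934672), the most abundant carboxylesterase here, read 866, 1019.9, 1223, 1065 and 1010.2 FPKM in HCD replicates 1 to 5 and 1158, 1449, 1345, 1307 and 1248 FPKM in NCD replicates 1 to 5. Only HCD replicate 3 reached into the NCD range, and the gene did not pass (difference -0.33 ± 0.13 SE, limma adjusted p = 0.0816). Ces2a (chr8:104734003-104741634) read 326, 347, 453, 320.0 and 281 FPKM in HCD replicates 1 to 5 and 317, 460.2, 506, 431 and 517 FPKM in NCD replicates 1 to 5. HCD replicate 3 was above NCD replicates 1 and 4, and HCD replicates 1, 2 and 4 were above NCD replicate 1 alone (difference -0.37 ± 0.16 SE, limma adjusted p = 0.111). Ces2c, an esterase and triacylglycerol hydrolase of liver and gut, averaged 289.7 ± 47.5 FPKM in HCD libraries and 342 ± 36.0 FPKM in NCD libraries (limma adjusted p = 0.196). The remaining tested genes of the family were low, Ces2b with 1.27 ± 0.329 FPKM in HCD libraries and 1.55 ± 0.637 FPKM in NCD libraries, and Ces3a with 1.07 ± 0.681 FPKM in HCD libraries and 1.52 ± 0.543 FPKM in NCD libraries.

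**Figure D4:**
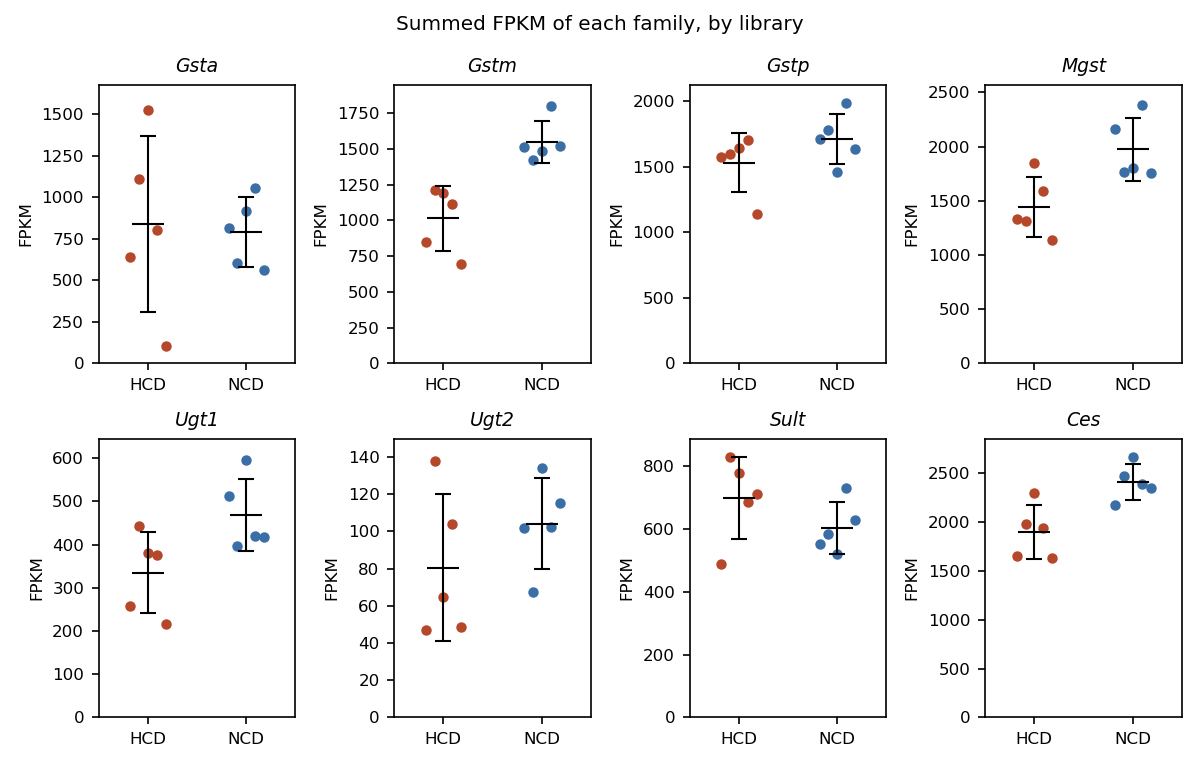
Summed FPKM of each family by library, with HCD libraries in red at the left and NCD libraries in blue at the right of each panel; lines are means and bars 1 SD (n = 5 each). The Gstm sums do not overlap between groups, while the Gsta sums span 107 to 1529 FPKM in HCD libraries.

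HCD replicate 5 was the lowest of all 10 libraries in 29 of the 48 tested members (60.4%, against 11.2% of all tested genes). They include 7 of the 10 genes called lower. Such genes were called for low HCD values, so their lowest library tends to be an HCD one. The share among all genes called lower was not counted, so the 7 cannot be set against it. HCD replicate 1 was the lowest in 10 members (20.8%, against 24.5% of all tested genes) and NCD replicate 2 in 4 (8.33%, against 8.02% of all). Each other library was the lowest in 2 at most. Among the 29 were Gsta1, Gsta2, Gsta4, Sult6b2 and Ces1g, which were named here after their values were seen, and Ugt1a6a and Ugt1a9 were listed at 0 there. In the same library Fabp6, an ileal bile acid-binding protein, was at 1214 FPKM, against 102 to 485 FPKM in HCD replicates 1 to 4 and 161 to 430 FPKM in NCD libraries. The list of distal gut markers summed to 4566 FPKM there, 1892 to 2772 FPKM in HCD replicates 1 to 4 and 1841 to 2918 FPKM in NCD libraries. That of proximal gut markers summed to 5707 FPKM there, 6878 to 10599 FPKM in HCD replicates 1 to 4 and 6567 to 9745 FPKM in NCD libraries. The distal markers Slc10a2, Tmigd1, Ceacam20 and Guca2a were also highest there, and the proximal markers Fabp1, Slc46a1, Slc40a1 and Gata4 lowest. Not every marker followed. Proximal Lct (292 FPKM), Rbp2 (3658 FPKM) and Bco1 (2.80 FPKM) lay within the range of the other libraries. So did distal Muc3 (373 FPKM), Clec2h (392 FPKM) and Osr2 (112 FPKM). The goblet cell list summed to 11308 FPKM there, 5313 to 9064 FPKM in HCD replicates 1 to 4 and 6717 to 9225 FPKM in NCD libraries. Of that list Muc2, Fcgbp, Zg16 and Spdef were highest in this library, and Tff3, Clca1, Agr2 and Spink4 were not. The part of these marker differences in the enzyme values was not tested. Without this library, 4 members were higher (8.33%, against 6.48% of all tested genes) and 8 were lower (16.7%, against 16.6% of all). The higher genes were then Ces1d, Sult6b2 (difference 1.56, limma adjusted p = 0.00712), Gsta2 (0.94, 0.0433) and Ces1g (0.87, 0.0477). Sult6b2, Gsta2 and Ces1g had their lowest value in the library left out, so leaving it out necessarily raised their HCD means. This library was singled out by such values, so these p-values are a description only. The lower ones were the 5 mu-class genes, Gstp3, Mgst2 and Ces2g.

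**Figure D5:**
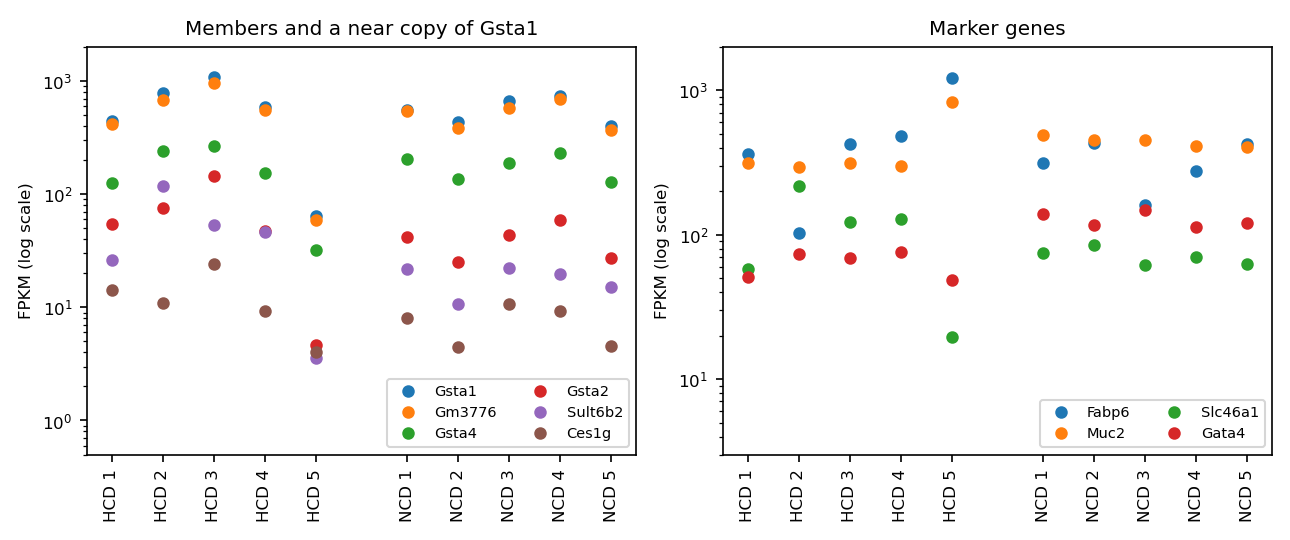
FPKM (log axis) in each library, HCD at the left and NCD at the right of each panel, of enzymes that were lowest in HCD replicate 5 with Gm3776 (left panel) and of gut segment and goblet cell markers (right panel). In HCD replicate 5 the enzymes are low and Slc46a1 (19.7 FPKM) is low, while Fabp6 and Muc2 (828 FPKM) are high. These markers were picked from longer lists, and not every listed marker followed them.

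The 37 members under the threshold of 1 FPKM were 15 Sult, 8 Ces, 5 Ugt1, 5 Ugt2, 2 Ugt3 and 2 cytosolic Gst genes. Of these, 23 were listed at 0 in every library, 10 were above 0 somewhere with no library reaching 1 FPKM, and 4 reached it in at least 1 library. Those 4 were Ces3b (at most 1.16 FPKM in HCD libraries and 1.81 FPKM in NCD libraries), Ces2h (at most 0.621 FPKM in HCD and 1.99 FPKM in NCD libraries), Ugt2b38 (1.49 FPKM in HCD and 0.332 FPKM in NCD libraries) and Ugt1a8 (0.210 FPKM in HCD and 7.43 FPKM in NCD libraries). The value of 7.43 FPKM was that of NCD replicate 3, the library with the highest Ugt1a6a and Ugt1a9.

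The genes that supply, export or control these enzymes were read from lists of 84 genes in all, of which 83 had a row, 68 were tested, 1 was higher (1.47%, against 7.13% of all tested genes) and 13 were lower (19.1%, against 19.2% of all). The lower share is thus near that of all genes. After rescaling without mitochondrial genes 4 were higher (5.88%, against 9.07% of all) and 4 lower (5.88%, against 8.34%), and after quantile normalization 6 were higher (8.82%, against 8.99%) and none lower by limma (9 at an unadjusted p under 0.05). For glutathione, 11 genes of supply and recycling were tested: Ggt1, the surface enzyme that starts glutathione breakdown, was higher, at 747 ± 123 FPKM in HCD libraries and 462 ± 94.2 FPKM in NCD libraries (difference 0.70 ± 0.17 SE, limma adjusted p = 0.00999). Gsr, which regenerates reduced glutathione, averaged 18.5 ± 3.27 FPKM in HCD libraries and 32.6 ± 8.88 FPKM in NCD libraries and was lower, as was Cth, which makes cysteine, at 22.8 ± 3.74 FPKM in HCD libraries and 42.2 ± 16.6 FPKM in NCD libraries. Of 5 genes listed for the supply of UDP-glucuronic acid, Slc35b1, a nucleotide carrier of the endoplasmic reticulum membrane, was lower (difference -0.51). Of 7 for the supply of the sulfate donor PAPS, its Golgi carriers Slc35b3 (-0.64) and Slc35b2 (-0.34) were lower. Of 6 exporters, Slc51a, a subunit of the basolateral organic solute transporter, was lower (-0.80), and of 5 deconjugating enzymes none passed by limma (1 at an unadjusted p under 0.05). Of 14 other conjugating or hydrolysing enzymes, Aadac (-0.92), the arylacetamide deacetylase, Nqo2 (-0.89), a quinone reductase, and Gstz1 (-0.46), an enzyme of tyrosine breakdown, were lower. After rescaling without mitochondrial genes, Ggt1, Gsr, Aadac and Nqo2 still passed, and after quantile normalization only Ggt1 of these genes did. The genes newly higher were Por, which hands electrons to cytochromes P450, Ephx2, an epoxide hydrolase, and Tpst2, a tyrosine sulfotransferase of the Golgi, under both settings, and Gclc, of glutathione synthesis, and Nr1i2 after quantile normalization. They were named after their values were seen.

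The list of regulators, which also holds the enzyme Por, had 20 tested genes. Of these 4 were lower (20%, against 19.2% of all tested genes) and none was higher by limma (1 at an unadjusted p under 0.05). Their median difference was -0.23, close to the -0.19 of all tested genes. After rescaling without mitochondrial genes 1 was higher, which was Por, and 1 lower. After quantile normalization 2 were higher, Por and Nr1i2, and none lower by limma (3 at an unadjusted p under 0.05). Among the lower ones were Cdx1 (82.5 ± 14.8 FPKM in HCD libraries and 136 ± 19.2 FPKM in NCD libraries, difference -0.72 ± 0.15 SE, limma adjusted p = 0.00352) and Cdx2 (-0.46 ± 0.13 SE, 0.0218), factors of intestinal identity. Cdx1 passed after rescaling without mitochondrial genes and Cdx2 did not, and neither passed after quantile normalization. The receptors and sensors that induce these enzymes did not pass in the deposited scaling, and of those below Nr1i2 passed as higher after quantile normalization (limma adjusted p = 0.0300): Nfe2l2, which acts through the antioxidant response element, averaged 69.1 FPKM in HCD libraries and 92.3 FPKM in NCD libraries (limma adjusted p = 0.118), Nr1i2, a receptor for foreign compounds, 57.5 FPKM in HCD and 52.1 FPKM in NCD libraries, its relative Nr1i3 44.3 FPKM in HCD and 36.1 FPKM in NCD libraries, and Ahr, the aryl hydrocarbon receptor, 3.38 FPKM in HCD and 2.71 FPKM in NCD libraries.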

How the data were processed

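The deposited values are FPKM, 1 column per library and 10 libraries, made by the authors from mRNA selected with poly-T beads (per the labels). The submitters' processing notes name HISAT2, StringTie, DESeq2, edgeR and the build GRCm38. Not given in the sources used here are their roles and versions, the annotation, filters and strand. Since FPKM are shares of a library, abundant transcripts lower all other values. Depth is unknown, so no counting intervals are given, and the number of libraries limits the precision. Libraries were grouped by title. Tests covered the 10321 genes averaging 1 FPKM or more, on log2(FPKM + 1) with limma 3.58.1 in R 4.3.3 (lmFit, eBayes with a trend, two-sided, Benjamini-Hochberg, threshold 0.05), HCD minus NCD. Folds are ratios of mean FPKM, and log2 differences understate the change of low genes. For counts at an unadjusted p under 0.05, the share of all tested genes was not counted, so they cannot be set against it. The procedure was tested on simulated data. Alternatives changed the pseudocount, filter, scaling, replicate block and libraries used. Coordinates are those of GENCODE M21. Per family, the 2 most abundant tested genes and up to 3 passing genes with the smallest p are given library by library. Members, lists and motifs were chosen with earlier results of these data known. A few results on regulators are not reported here.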

Additional observations from a re-analysis of the deposited data

Results flagged for a closer look

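In 9 of the 96 groups of 5 libraries examined (48 genes in each group of libraries), 1 library lay far from the other 4 by Dixon's criterion (gap over range above 0.71), where chance gives about 1 in 20 groups. Ces3a was at 2.26 FPKM in HCD replicate 4 and at 0.656 to 1.04 in the other HCD libraries. Gstm5 was at 11.3 FPKM in HCD replicate 2, below the 14.7 to 16.0 of the others. HCD replicate 3 was high in Gsto1 (793 FPKM, others 476 to 566) and in Mgst1 (662 FPKM, others 375 to 420.0). HCD replicate 5 was low in both near-identical pi-class genes, Gstp1 (964 FPKM, others 1327 to 1449) and Gstp2 (167 FPKM, others 219.5 to 239). In NCD libraries, Mgst2 was at 506 FPKM in replicate 4 (others 369 to 405), Sult1b1 at 159.9 FPKM in replicate 2 (others 214 to 224) and Ugt1a9 at 54.2 FPKM in replicate 3 (others 1.54 to 8.42).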

How the results depend on the processing

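Ces1d stayed higher in every alternative except the fit of replicates 4 and 5 alone, where no member passed by limma (14 had an unadjusted p under 0.05) and each group has 2 libraries. The share of all tested genes at that unadjusted threshold was not counted, so the 14 cannot be set against it. Over all tested genes, higher calls numbered 736, and 433 at a mean of at least 5 FPKM, 420 among replicates 1 to 3 and 53 among replicates 4 and 5. Lower calls numbered 1982, and 861 after rescaling without mitochondrial genes, 883 after quantile normalization, 1017 among replicates 1 to 3 and 14 among replicates 4 and 5. Leaving out 1 library gave 551 to 787 higher and 1319 (without NCD replicate 1) to 2036 lower calls. Among the members, 3 were lower after quantile normalization, 3 were higher and 3 lower among replicates 1 to 3 (Ces1d, Gsta2 and Sult6b2 higher, Ces2g, Gstm7 and Gstp3 lower), and 0 and 0 among replicates 4 and 5. Leaving out 1 library gave 1 to 4 higher and 8 to 11 lower. Mgst1 passed without HCD replicate 3, NCD replicate 2 or NCD replicate 5, Ugt2a3 and Ugt2b35 without HCD replicate 2 or NCD replicate 2, and Ces2a without HCD replicate 3 or NCD replicate 1, with smallest limma adjusted p-values of 0.0103, 0.0217, 0.0174 and 0.0416. Mgst1 also passed with the replicate block, and Mgst1 and Ugt2a3 also passed rescaled to TPM and at a mean of at least 5 FPKM. Ces2e passed rescaled to TPM. Of the pathway genes, 1 was higher and 13 were lower, and 2 higher and 8 lower without a filter on low values, 4 and 4 after rescaling without mitochondrial genes, 6 and 0 after quantile normalization, 1 and 4 among replicates 1 to 3, 0 and 0 among replicates 4 and 5 by limma (2 higher and 7 lower at an unadjusted p under 0.05). Leaving out 1 library gave 1 to 3 higher and 6 (without NCD replicate 1) to 15 lower pathway genes, with 8 lower without NCD replicate 3. No replicate pairing could be seen: same-numbered libraries had correlations of deviations of 0.22, -0.24, -0.20, 0.01 and 0.10, not every library correlated best with its own number, and with the replicate block 673 genes were higher and 1620 lower, with 1 member higher and 9 lower.

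No called member changed direction in any alternative. The calls of Ces1c and Ugt1a1 were lost in 15 and 14 alternatives, and those of the other 9 called members in 1 to 4. Members that did not pass changed sign as follows. After rescaling without mitochondrial genes, Sult1d1 was at 0.11, Gstp1 at 0.011, Gstt2 at 0.030, Gstp2 at 0.023 and Gsto1 at 0.062. Rescaled to TPM, Sult1b1 was at -0.027. After quantile normalization, Sult1d1 was at 0.19, Ces2c at 0.038, Gstt2 at 0.12, Gstp2 and Gsto1 at 0.13, Gstk1 at 0.082 and Gstt1 at 0.084. Over the fits that leave out 1 library, Sult1d1 ranged from -0.33 to 0.10, Sult1b1 from -0.083 to 0.20, Gsta2 from -0.23 (without HCD replicate 3) to 0.94, and, with the highest value without HCD replicate 5, Gsta1 from -0.69 to 0.33, Gsta4 from -0.65 to 0.11 and Gstt1 from -0.31 to 0.0012. Among replicates 1 to 3, Sult1d1 was at 0.20, Gsta1 at 0.40, Gstp2 at 0.014, Sult1a1 at -0.048, Gstt1 at 0.059 and Gsta4 at 0.19. Among replicates 4 and 5, Ces1g was at -0.079, Gsta2 at -1.31, Gsta3 at -0.54, Sult1b1 at -0.19, Ces3a at 0.13 and Sult6b2 at -0.30. The cause of these changes was not tested.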
